A study of Mus musculus with 51 samples.

Results

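The synaptonemal complex genes described here are Sycp1, Sycp2, Sycp3, Syce1, Syce2, Syce3, Tex12, Hormad1 and Hormad2. They were found by gene symbol, and all 9 were among the 55401 genes of the count table. Messenger RNA was sequenced in 30 libraries, 3 in each of 10 groups of mice of mixed 129Sv and C57Bl/6J background. DMRT1 is a transcription factor that maintains male fate in Sertoli cells and acts in germ cells, and the study compared gonads with different Dmrt1 alleles. At postnatal day 28 (P28) whole gonads were Dmrt1 +/+, Dmrt1 +/-, Dmrt1 -/- or Dmrt1 R111G/+, where R111G is a missense allele in the DNA binding domain whose line came from 1 founder. The genotypes of the whole gonads at P3 were, for Dmrt1, +/-, -/-, R111G/- and R111G/+. At P7 Sertoli cells were isolated from mice with CAG-Stopflox-tdTomato and Dhh-Cre, a Cre active in the Sertoli lineage. The Dmrt1 f/f cells are called null and the Dmrt1 f/+ cells control, although the titles of the control libraries read +/+. The study's methods describe XY animals, pooling of tubules from 2 mice per tube at P7, and depletion of germ cells with Thy1 and Kit antibody beads. Nothing in the labels says that libraries were separate animals, so p-values measure the spread between these libraries.

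The synaptonemal complex is the protein ladder that holds paired homologous chromosomes together during meiotic prophase. SYCP2 and SYCP3 build the chromosome axes, which become the lateral elements of the ladder, and HORMAD1 and HORMAD2 are axis proteins that mark chromosome stretches that have not yet synapsed. SYCP1 forms the transverse filaments that span the gap, and SYCE1, SYCE2, SYCE3 and TEX12 form the central element in the middle. In the testis these genes are used by spermatocytes, and transcription of several of them starts before meiosis, in spermatogonia. In the mouse testis, germ cells are still spermatogonia or their precursors at P3, and spermatocytes and round spermatids are present by P28.

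All 9 genes are protein coding. On GRCm38 the filament gene Sycp1 lies on the reverse strand at chr3:102818499-102936100. The axis genes lie at chr2:178345293-178407685 (Sycp2, reverse strand), chr10:88459569-88473236 (Sycp3, forward), chr3:95559677-95587671 (Hormad1, forward) and chr11:4345814-4441105 (Hormad2, reverse). The central element genes lie at chr7:140777229-140787852 (Syce1, reverse), chr8:84872111-84888221 (Syce2, forward), chr15:89390174-89410503 (Syce3, reverse) and chr9:50556819-50561325 (Tex12, reverse). No exon of a member overlapped an exon of another gene on the same strand. On the opposite strand, 660 exon bases of Sycp3 overlapped Chpt1, and the study's methods state that reads were counted by strand.

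The 250 bases before the annotated start were searched, on both strands, for letters known from factors of the germ line. RefSeq (GRCm38.p6) gave 12 windows for the 9 genes. A member was counted if any of its windows matched, while the percentages are of single windows, so the 2 are not strictly alike. The core of the E2F site, TCCCGC, was found before 4 of the 9 genes, against 16.9% of 32851 promoter windows of all genes. CNCCTCAG, known from the meiotic inducer STRA8, was found before Syce2 and Hormad2 (6.42% of all windows). In Syce2 it lay only in the window of a downstream start, which is not shown. CNGTT, known from MYB factors, was found before all 9 (74.2%), and ACANTGT, a core of DMRT1 sites, before Tex12 alone (6.47%). TGACGTCA, the cAMP response element, was found before none of them (1.55%). The windows with TCCCGC are shown for Sycp3, Hormad1, Tex12 and Syce2, which differed widely in how they changed below. The window of Syce1, which with Sycp2 had the largest falls in P28 -/- gonads, is shown for comparison. Each reads 5′ to 3′ on the strand of the gene and ends at the base before the start, and capitals mark TCCCGC or its reverse complement.
Sycp3, chr10:88459337-88459586, forward strand: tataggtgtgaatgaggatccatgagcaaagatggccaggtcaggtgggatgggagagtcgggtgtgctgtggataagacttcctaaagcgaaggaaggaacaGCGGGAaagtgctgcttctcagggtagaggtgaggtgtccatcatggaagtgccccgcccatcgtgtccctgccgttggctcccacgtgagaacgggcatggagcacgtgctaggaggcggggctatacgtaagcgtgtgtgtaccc
Hormad1, chr3:95559427-95559676, forward strand: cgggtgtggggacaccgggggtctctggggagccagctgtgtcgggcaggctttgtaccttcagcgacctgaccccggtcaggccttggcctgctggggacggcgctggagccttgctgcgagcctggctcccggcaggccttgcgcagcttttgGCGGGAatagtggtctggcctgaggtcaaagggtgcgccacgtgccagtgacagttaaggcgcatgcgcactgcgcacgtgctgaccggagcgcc
Tex12, chr9:50561269-50561518, reverse strand: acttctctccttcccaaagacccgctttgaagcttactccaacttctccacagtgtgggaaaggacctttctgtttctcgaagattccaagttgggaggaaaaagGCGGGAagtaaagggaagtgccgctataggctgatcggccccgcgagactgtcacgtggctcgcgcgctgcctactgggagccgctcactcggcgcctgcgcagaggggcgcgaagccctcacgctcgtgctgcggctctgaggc
Syce2, chr8:84871861-84872110, forward strand: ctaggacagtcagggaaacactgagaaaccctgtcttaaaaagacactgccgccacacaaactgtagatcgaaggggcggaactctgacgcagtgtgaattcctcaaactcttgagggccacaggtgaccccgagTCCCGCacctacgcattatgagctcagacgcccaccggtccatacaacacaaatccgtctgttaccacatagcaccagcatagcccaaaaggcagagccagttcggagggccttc
Syce1, chr7:140787855-140788104, reverse strand: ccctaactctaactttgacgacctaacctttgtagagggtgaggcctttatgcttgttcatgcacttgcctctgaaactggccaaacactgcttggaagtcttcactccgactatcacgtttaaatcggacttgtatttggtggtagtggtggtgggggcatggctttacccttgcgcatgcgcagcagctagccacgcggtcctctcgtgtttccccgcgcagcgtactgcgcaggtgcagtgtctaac
The first base of the capitals lies 147 bases before the start in Sycp3, 95 in Hormad1, 145 in Tex12 and 115 in Syce2. A second Syce2 start, downstream, also has TCCCGC, 34 bases before it. The members carried 5 to 24 CG dinucleotides per window, against a median of 6 over all windows. These matches are a description of the sequence.

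Library totals ran from 5043838 to 12792811 counts, and the 9 genes together had 8974 to 13848 counts in each P28 +/+ or +/- library, 5835 to 9149 in P28 R111G/+, 57 to 84 in P28 -/-, 115 to 626 at P7 and 343 to 1081 at P3. Levels are given as CPM, counts relative to library size after TMM scaling across the 30 libraries, while tests were fitted by age and tissue with factors of their own, so folds can differ slightly from ratios of levels. The targeted gene followed the labels: Dmrt1 was at 31.2 to 62.3 CPM in the P28 +/+ and +/- libraries and at 0.171 to 0.463 CPM in P28 -/-. It was at 2.12 to 3.32 CPM in P3 -/-, against 53.3 to 81.7 CPM in P3 +/-, and at 21.2 to 36.8 CPM in P7 null, against 168 to 259 CPM in control. The library P28 +/- replicate 3 stood apart: its 14 spermatid genes summed to 5261 CPM, against 19236 and 24315 CPM in the other two. The P7 libraries were rich in Sertoli markers, with Sox9 at 145 to 311 CPM, but they also held the germ cell helicase gene Ddx4 at 13.6 to 56.2 CPM.

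Across the 10 groups the order of levels was much the same for 7 of the 9 genes. Sycp1, Sycp2, Sycp3, Hormad1, Hormad2, Syce3 and Tex12 were highest in P28 +/+ or +/- testes, which overlapped each other, followed in the mean by P28 R111G/+ gonads. For Sycp3 and Tex12 the R111G/+ libraries overlapped those of +/+, with log2 fold changes of -0.32 ± 0.24 and -0.32 ± 0.25 that were not called. A lower tier held the P3 and P7 groups, most of which overlapped their neighbours, and P28 -/- gonads were lowest of all. Syce1 had the same tiers, but its P28 +/- libraries, at 219 to 369 CPM, lay below the P28 +/+ libraries, at 394 to 427 CPM. That difference was not called (log2 fold change -0.39 ± 0.23, adjusted p = 0.353, edgeR), and the share of all genes with such a gap was not assessed. Syce2 differed, since its level in P28 R111G/+ gonads (22.2 ± 3.13 CPM, SD, n = 3) fell among those of P3 gonads (16.3 to 25.7 CPM, the 4 group means). Hormad2 was higher in P7 Sertoli preparations (4.21 ± 1.62 CPM in control and 2.31 ± 0.690 CPM in null) than in any P3 group, whose means ran from 0.773 to 2.16 CPM, but the null libraries overlapped those of 3 P3 groups, all except R111G/-. The plot of levels by library shows these tiers.

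**Figure D1:**
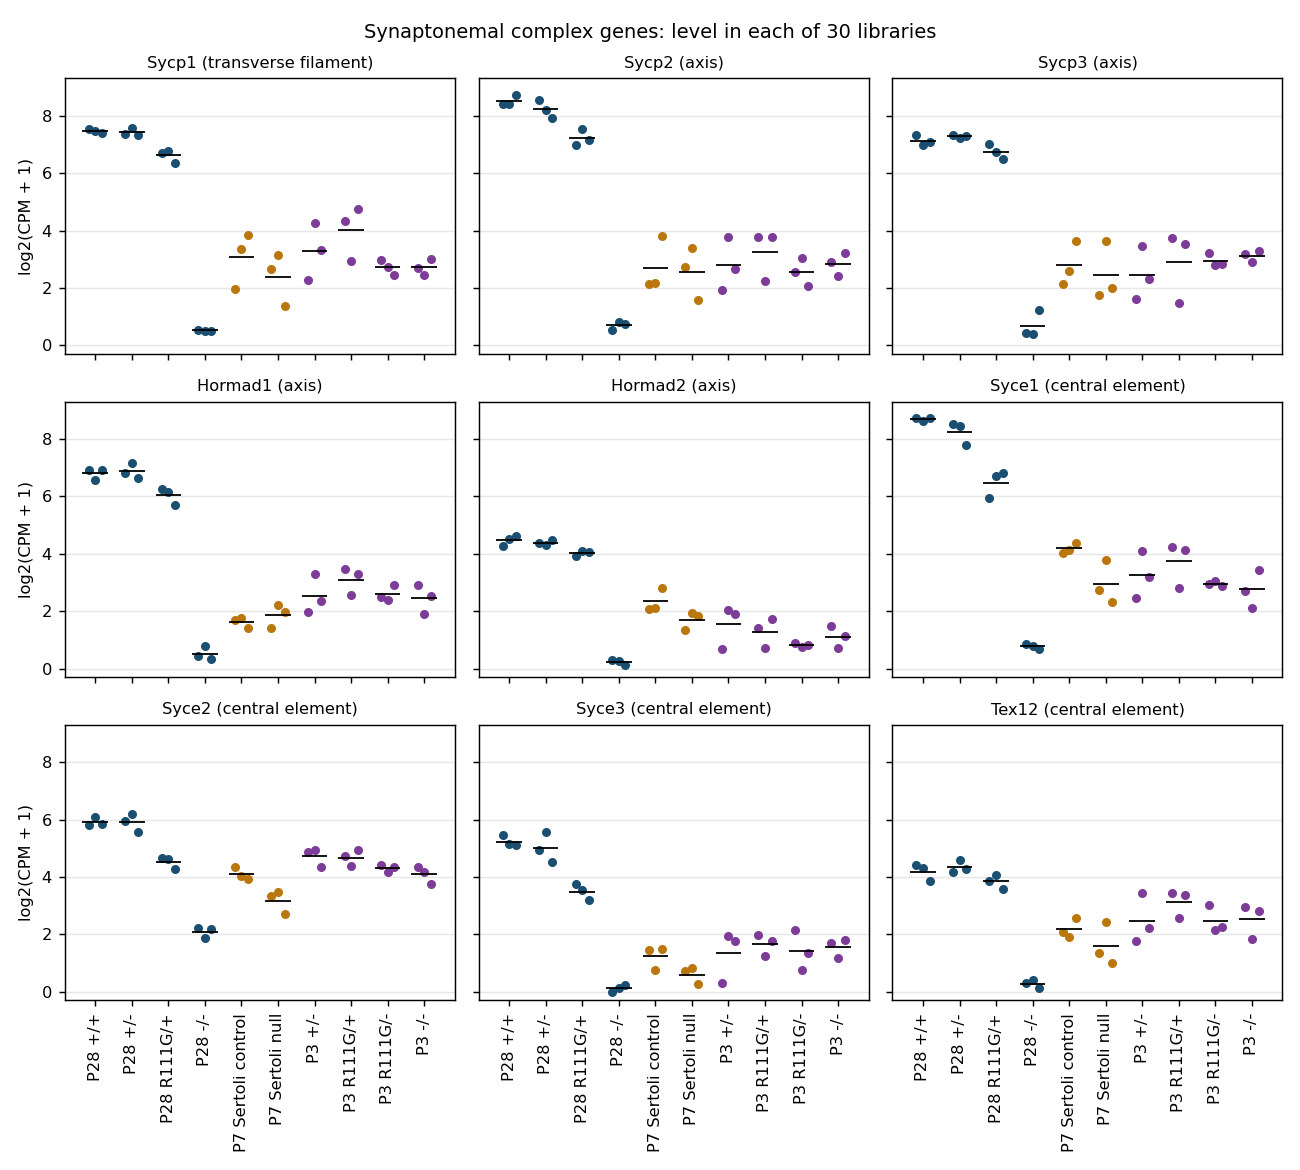
Level of each of the 9 genes, as log2(CPM + 1), in the 30 libraries, with 1 point per library and a line at the mean of the 3. Blue marks P28, ochre P7 and purple P3, and all 9 genes were lowest in the P28 -/- libraries, where the highest single value was 3.71 CPM for Syce2.

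Per kilobase of exon, which allows genes to be compared, Syce1 was highest in P28 +/+ testes at 284 ± 12.2 CPM per kilobase (SD, n = 3). Sycp3 followed at 110 ± 14.3, then Syce3 at 66.6 ± 9.22, Hormad1 at 64.7 ± 9.06, Sycp2 at 61.8 ± 8.24 and Sycp1 at 49.3 ± 2.35 CPM per kilobase. Syce2 at 30.2 ± 3.03, Tex12 at 17.2 ± 3.56 and Hormad2 at 7.79 ± 1.01 CPM per kilobase were lowest. In P28 R111G/+ gonads Sycp3 was highest, at 85.5 ± 16.1 CPM per kilobase, and Syce1 was second, at 62.7 ± 18.7. At P3 Syce2 led in all 4 genotypes, with means of 8.28 to 13.0 CPM per kilobase.

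P28 -/- gonads were compared with +/+ testes to ask what loss of Dmrt1 does to transcripts of the complex genes. All 9 genes were lower in -/- gonads (edgeR quasi-likelihood test, adjusted p below 0.05 and over 2-fold), against 40.5% of the 20952 genes tested. The fall was 17.6-fold to 562-fold, with a median log2 fold change of -7.92 over the members and -0.31 over all genes. In whole gonads, fewer cells of a type and less RNA per cell cannot be told apart. The filament gene Sycp1 was at 184, 175 and 167 CPM in the +/+ libraries and at 0.463, 0.425 and 0.427 CPM in the -/- libraries. Its log2 fold change was -8.57 ± 0.23 (SE, adjusted p = 1.6e-10, edgeR).

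The axis genes fell to between 0.171% and 0.829% of the +/+ mean. Sycp2 was at 341, 339 and 426 CPM in +/+ testes and at 0.463, 0.744 and 0.684 CPM in -/- gonads (log2 fold change -9.11 ± 0.31, adjusted p = 5.06e-10, edgeR). Sycp3 was at 160, 125 and 133 CPM against 0.347, 0.319 and 1.37 CPM, and Hormad1 at 121, 93.7 and 121 CPM against 0.347, 0.744 and 0.256 CPM. Hormad2, a scarcer transcript, was at 18.2, 22.1 and 23.6 CPM against 0.232, 0.213 and 0.0855 CPM. The -/- libraries lay below the +/+ libraries for each of the 4 axis genes, as they did for 47.9% of all genes tested.

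Among the central element genes the fall was uneven. Syce1 dropped from 427, 394 and 423 CPM to 0.811, 0.744 and 0.598 CPM (log2 fold change -9.13 ± 0.36, adjusted p = 1.12e-09, edgeR). Its fall and that of the axis gene Sycp2 (-9.11 ± 0.31) were the largest of the 9 and within their errors of each other. Syce1 kept 0.173% of the +/+ mean and Sycp2 0.171%. Syce3 had 848 counts over the +/+ libraries and 3 counts over the -/- libraries, a ratio of 369 with a 95% counting interval of 126 to 1793. Tex12 was at 20.3, 18.7 and 13.4 CPM against 0.232, 0.319 and 0.0855 CPM. Syce2 kept the most RNA, at 55.8, 66.3 and 56.2 CPM in +/+ testes and 3.71, 2.66 and 3.50 CPM in -/- gonads, which is 5.54% of the +/+ mean (log2 fold change -4.13 ± 0.23, adjusted p = 6.9e-09, edgeR). Syce2 made up 42.4% to 56.1% of the counts of the 9 genes in the -/- libraries, against 4.02% to 5.23% in +/+.

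Germ cell markers were low in the same libraries. All 12 genes of the list for germ cells of all stages were called lower in P28 -/- gonads, and their sum was 9.61 to 16.4 CPM, against 2561 to 2751 CPM in +/+ testes, or 0.447% by the medians. The 14 spermatid genes stood at 0.178% of +/+ and the 15 spermatocyte genes outside the complex at 1.76%. The 10 genes of differentiating spermatogonia and meiotic entry kept more, at 16.9% of +/+. Of these, 9 were called lower and 1 higher, beside 40.5% of all genes tested that were called lower. The spermatid value was close to those of Sycp2 (0.171%) and Syce1 (0.173%). In -/- gonads 10 of the 14 spermatid genes were called higher at P28 than at P3, as were 2318 of all 21377 genes tested. The source of that RNA was not tested. Against +/+ testes at P28, Ddx4 differed by -8.80 ± 0.31 on the log2 scale (adjusted p = 5.84e-10, edgeR). The part of these markers in the values of the complex genes was not tested. Of the 10 genes of undifferentiated spermatogonia that were tested, 7 were called lower, with a median log2 fold change of -2.71, among them Pou5f1 (-9.08 ± 0.87), Sall4 (-5.82 ± 0.70) and Lin28a (-5.26 ± 0.45). Zbtb16, Etv5 and Ret of that list were not called (0.09 ± 0.22, 0.31 ± 0.27 and -0.79 ± 0.54). Against +/- testes the complex genes gave the same result, with 9 of 9 genes lower (38.7% of all genes tested) and a median log2 fold change of -8.02. Both comparisons share the -/- libraries.

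P28 +/- testes were compared with +/+ testes to ask whether 1 copy of Dmrt1 suffices. None of the 9 genes was called by edgeR, and the percentage of all genes called was 0. At an unadjusted p below 0.05 edgeR gave 0 of the 9 and 3769 of 20952 genes, and DESeq2 called 0 of the 9 and 29 genes in all. The largest difference was for Syce1, at -0.39 ± 0.23 on the log2 scale (adjusted p = 0.353, edgeR) and an interval of 2 standard errors from -0.84 to 0.07. For Sycp1 the interval ran from -0.30 to 0.28, and over the 9 genes the bounds lay between -0.84 and 0.68.

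R111G/+ gonads at P28 were compared with +/- testes, since both carry 1 wild-type allele. Syce1, Syce2 and Syce3 of the central element were called lower, at 3.34-fold, 2.65-fold and 3.11-fold, and the other 6 genes, with log2 fold changes of -0.97 to -0.35, were not called, but all 9 were called when libraries were scaled to 22 genes of interstitial cells. Those 22 genes are an alternative standard for scaling, and they shift the median of all genes in this comparison from -0.17 to -1.14 on the log2 scale. The 3 calls stand beside 28.1% of all genes tested that were called lower, and the median log2 fold change was -0.83 over the members and -0.17 over all genes. All R111G/+ libraries lay below all +/- libraries for each of the 9 genes, against 37.3% of all genes tested.

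For Syce1 the +/- libraries were at 369, 346 and 219 CPM and the R111G/+ libraries at 60.3, 103.1 and 111.1 CPM (log2 fold change -1.74 ± 0.24, adjusted p = 9.36e-05, edgeR). Syce3 was at 29.5, 46.6 and 21.9 CPM against 12.4, 10.6 and 8.10 CPM (log2 fold change -1.64 ± 0.29, adjusted p = 0.000513). Syce2 was at 61.2, 72.2 and 45.9 CPM against 24.2, 23.7 and 18.6 CPM (log2 fold change -1.41 ± 0.19, adjusted p = 9.85e-05). The lowest +/- value of each of these genes was that of replicate 3, and all 3 calls were also made without that library. Tex12, the remaining central element gene, stood apart from them at 17.2, 22.9 and 18.2 CPM against 13.6, 15.9 and 11.0 CPM (log2 fold change -0.51 ± 0.24, adjusted p = 0.0979).

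Sycp1 of the transverse filament passed the adjusted p but not the fold limit, at 162, 189 and 159 CPM against 103, 109 and 81.2 CPM (log2 fold change -0.78 ± 0.14, adjusted p = 0.00074, edgeR). The same held for Sycp2 (-0.97 ± 0.20, adjusted p = 0.0013) and Hormad1 (-0.83 ± 0.21, adjusted p = 0.00565) among the axis genes. Sycp2 lay so close to the 2-fold limit that it was called without +/- replicate 2 (-1.01), without +/- replicate 3 (-1.11), without R111G/+ replicate 2 (-1.15) and by DESeq2 (-1.01). Sycp3 was at 161, 149 and 156 CPM against 129, 107 and 88.3 CPM (log2 fold change -0.51 ± 0.24, adjusted p = 0.089). Hormad2 was at 19.9, 18.6 and 21.1 CPM against 14.3, 16.1 and 15.7 CPM (-0.35 ± 0.19, adjusted p = 0.135).

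**Figure D2:**
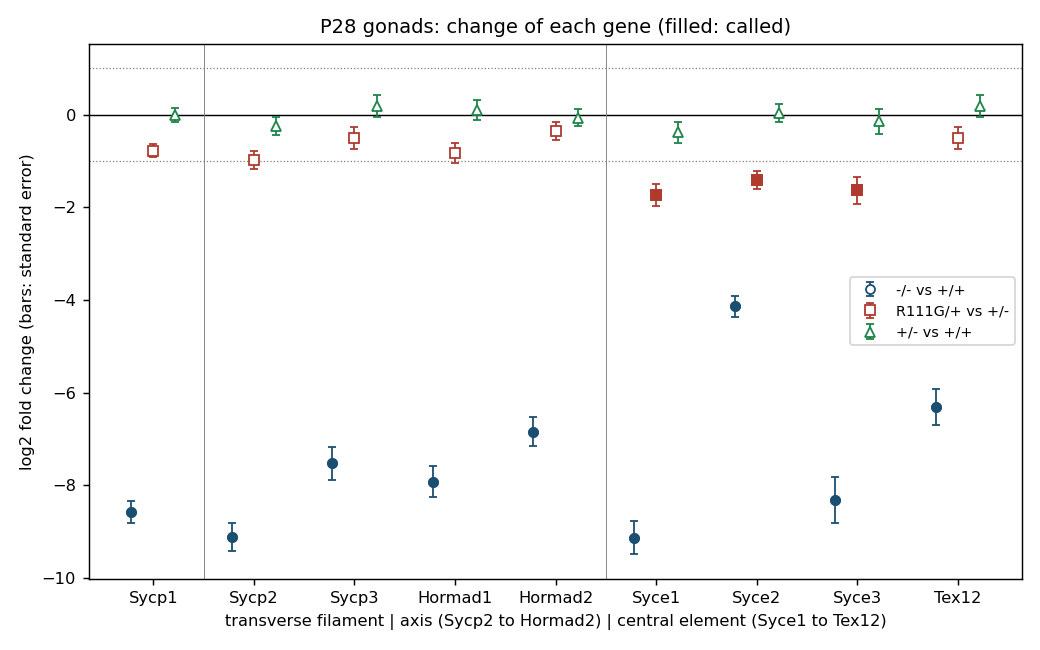
Log2 fold change of each gene at P28 with its standard error, for -/- against +/+ (circles), R111G/+ against +/- (squares) and +/- against +/+ (triangles). Filled symbols were called and dotted lines mark 2-fold. All 9 genes were called in -/- gonads, and in R111G/+ gonads Syce1, Syce2 and Syce3 were called, or all 9 with scaling by interstitial cell genes.

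Ratios of counts within a library do not depend on scaling. The 4 central element genes held 36.4%, 38.1% and 31.0% of the counts of the 9 genes in the +/- libraries and 37.7% to 40.5% in +/+. They held 19.8%, 23.9% and 28.2% in the R111G/+ libraries, below every +/- and +/+ library. Most of these counts were those of Syce1. Over the +/- libraries it had 9444, against 1806 for Syce2, 973 for Syce3 and 591 for Tex12. Over the R111G/+ libraries it had 3540, against 832, 385 and 511. The 4 axis genes held 56.4% to 61.7% in R111G/+, against 47.1% to 52.7% in +/- and 45.7% to 50.4% in +/+. The shares of a library add up to the whole, so the higher axis share is not a separate result. The ratio of Syce1 to Sycp3 counts was 2.28, 2.32 and 1.40 in +/-, 2.67, 3.16 and 3.17 in +/+, and 0.467, 0.966 and 1.26 in R111G/+. An exact two-sided permutation test of 3 against 3 libraries cannot give a p under 0.1, so none is given for these ratios.

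**Figure D3:**
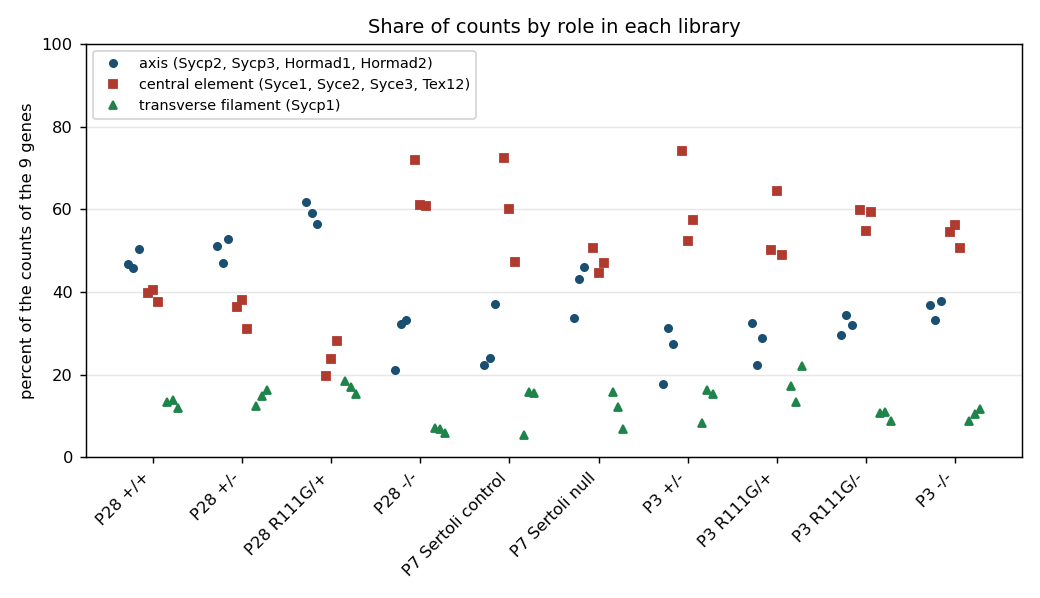
Percent of the counts of the 9 genes that came from axis, central element and filament genes, with 1 point per library. Most central element counts of P28 +/+, +/- and R111G/+ were those of Syce1. In P28 R111G/+ the central element share was 19.8% to 28.2%, below the 31.0% to 40.5% of +/+ and +/- testes, and in P28 -/- it was 60.7% to 71.9%, from 57 to 84 counts per library.

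Some markers of the germ line also differed in P28 R111G/+ gonads. The 12 genes of germ cells of all stages summed to 1067 to 1360 CPM, against 2047 to 2451 CPM in +/-. Of these 12, 4 were called lower, beside 28.1% of all genes tested. The 15 spermatocyte genes summed to 887 to 1345 CPM against 2557 to 4793 CPM, with 7 called lower, and the 14 spermatid genes to 692 to 959 CPM against 5261 to 24315 CPM, with all 14 called lower. Of the 10 genes of undifferentiated spermatogonia that were tested, 1 was called lower, with a median log2 fold change of -0.06. Of the 10 genes of differentiating spermatogonia and meiotic entry, 2 were called lower, with a median of -0.22. For Stra8, which germ cells switch on before meiosis, the value was -0.32 ± 0.31 on the log2 scale (adjusted p = 0.4, edgeR). Per 1000 CPM of the 12 germ cell genes, Syce1 was at 56.5 to 89.4 in R111G/+ and 107 to 151 in +/-, while Sycp3 was at 71.1 to 121 and 63.4 to 76.4, which overlapped. Syce2, at 15.0 to 22.7 in R111G/+ and 22.4 to 30.7 in +/-, and Syce3, at 6.52 to 11.6 and 10.7 to 19.8, overlapped by this measure, although both were called lower by level. Hormad2 was at 11.8 to 13.4 in R111G/+ and 7.92 to 10.3 in +/-, higher by this measure. The part of these lists in the values of the complex genes was not tested.

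R111G/+ gonads at P28 kept far more RNA of the complex genes than -/- gonads. All 9 genes were higher in R111G/+ (27.6% of all genes tested), with a median log2 fold change of 7.01, the least for Syce2 at 2.76 ± 0.22 (adjusted p = 4.79e-07, edgeR). Syce3 had 385 counts over the R111G/+ libraries and 3 over the -/- libraries, a ratio of 101 with a 95% counting interval of 34.4 to 494. Against +/+ testes, Sycp2, Syce1, Syce2 and Syce3 were called lower (34.1% of all genes tested), with log2 fold changes of -1.22 ± 0.20, -2.12 ± 0.24, -1.37 ± 0.19 and -1.78 ± 0.29. Sycp2 was not called without R111G/+ replicate 1 (-0.91) or with no filter on low counts (-0.95). With library totals alone neither Sycp2 nor Syce2 was called, and with scaling by interstitial cell genes all 9 were. These comparisons share R111G/+ libraries with the one against +/-.

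P7 Sertoli cells were compared to ask what Dmrt1 deletion in the Sertoli lineage does to transcripts in these preparations. Of the 9 genes, 8 passed the filter on low counts and Syce3 did not. None of the 8 was called by edgeR, against 4.56% of the 14013 genes tested. At an unadjusted p below 0.05 there were 2 of the 8 and 3003 of the 14013 genes, and DESeq2 called Syce1 among 963 genes. Syce1 was at 15.3, 16.7 and 19.9 CPM in control and 5.69, 12.9 and 3.93 CPM in null cells (log2 fold change -1.21 ± 0.42, adjusted p = 0.134). It was called without null replicate 2 (-1.84, adjusted p = 0.035), with no filter on low counts (-1.23, adjusted p = 0.00597) and by DESeq2 (-1.21, adjusted p = 0.0399). Syce2 was at 19.6, 15.3 and 14.2 CPM in control and 9.08, 10.2 and 5.50 CPM in null cells (log2 fold change -0.98 ± 0.29, adjusted p = 0.091, edgeR). Null libraries lay below control libraries for Syce1, Syce2 and Hormad2, against 13.3% of all genes tested, and the other 6 genes overlapped.

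Germ cell genes were still present at P7 and varied between libraries. The 12 germ cell genes summed to 328 to 608 CPM in control and 177 to 466 CPM in null cells, and 2 of the 11 tested were called lower. The libraries with the highest sum in each group, control replicate 3 and null replicate 2, also had the highest Sycp2, at 13.0 and 9.48 CPM, and Sycp3, at 11.3 and 11.4 CPM. Sycp1, Syce1, Syce3, Tex12 and Hormad2 were highest in the same libraries. Syce2 and Hormad1 went the other way in control replicate 3, where both were lowest of the controls, at 14.2 and 1.66 CPM. Spermatid genes summed to 148 to 218 CPM at P7, against 0.850 to 2.60 CPM at P3. Of the 10 tested at P7, none was called between null and control cells, beside 4.56% of all genes tested. Where this spermatid RNA came from was not tested, nor was the part of these lists in the values of the complex genes.

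At P3, before meiosis, 4 comparisons of gonads were made and none of the 9 genes was called by edgeR in any of them. The percentages of the 15837 genes tested that were called were 0.511% for -/- against +/-, 0.133% for R111G/+ against +/-, 0.196% for R111G/- against +/- and 0.177% for R111G/- against -/-. In the same order, at an unadjusted p below 0.05 edgeR gave 1, 0, 2 and 0 members and 1397, 913, 1069 and 1199 genes in all. DESeq2 called none of the 9 in these comparisons, and 127, 80, 65 and 61 genes in all. Syce2 in -/- gonads came nearest, at 19.5, 16.8 and 12.5 CPM against 27.9, 29.5 and 19.5 CPM in +/- (log2 fold change -0.65 ± 0.20, adjusted p = 0.228).

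The spread within P3 groups was large. In +/- gonads Sycp1 was at 3.88, 18.1 and 8.97 CPM, and in R111G/+ gonads at 19.3, 6.70 and 26.1 CPM. The libraries with the high values, +/- replicate 2 and R111G/+ replicates 1 and 3, also had the most germ cell RNA, with 595, 712 and 583 CPM over the 12 germ cell genes, against 215 to 329 CPM in the other libraries of these groups. In -/- and R111G/- gonads Sycp1 lay between 4.49 and 7.06 CPM. Intervals of 2 standard errors for R111G/+ against +/- were wide, from -0.24 to 1.72 for Sycp1 and from -0.56 to 1.75 for Sycp3 on the log2 scale, and narrow for Syce2, from -0.44 to 0.34.

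**Figure D4:**
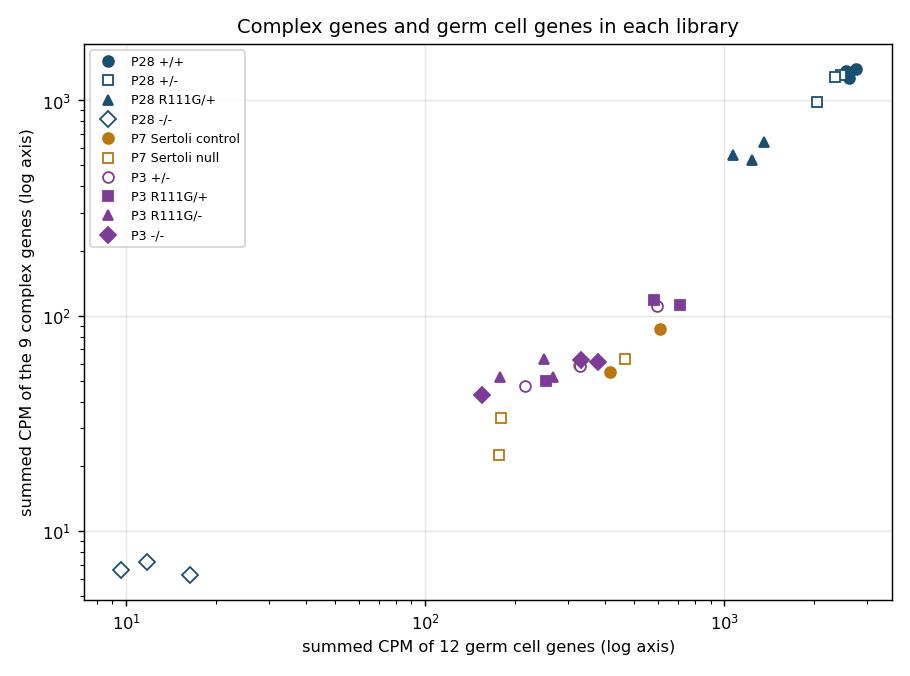
Summed level of the 9 complex genes against the summed level of 12 germ cell genes in the 30 libraries, both in CPM on log axes. The P28 +/+ and +/- libraries lie at the upper right (983 to 1396 CPM of complex genes), P28 R111G/+ below them (528 to 642 CPM), the P3 and P7 libraries lower (22.6 to 118 CPM) and P28 -/- at the lower left (6.27 to 7.18 CPM).

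Between P3 and P28 the complex genes went opposite ways with and without Dmrt1. Age and any difference in sequencing between the ages cannot be told apart here. In +/- gonads all 9 genes were higher at P28 (36.6% of the 21377 genes tested), from 1.23 ± 0.20 for Syce2 to 5.46 ± 0.43 for Sycp2 on the log2 scale, though Syce2 was not called with library totals alone (0.97). In R111G/+ gonads 7 genes were higher (28.1% of all genes tested), and Syce2 (-0.16 ± 0.20, adjusted p = 0.511, edgeR) and Tex12 (0.76 ± 0.40, adjusted p = 0.104) were not called, though with scaling by interstitial cell genes both were called higher, at 1.49 and 2.42. In -/- gonads all 9 were lower at P28 (12.4% of all genes tested), with a median log2 fold change of -3.41. When only the groups compared were fitted, Syce3 did not pass the filter on low counts and the count was 8 of 8 tested. In -/- gonads Tex12 fell from 6.81, 2.62 and 6.10 CPM at P3 to 0.232, 0.319 and 0.0855 CPM at P28, and Syce3 from 52 counts over the P3 libraries to 3 over the P28 libraries.

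**Figure D5:**
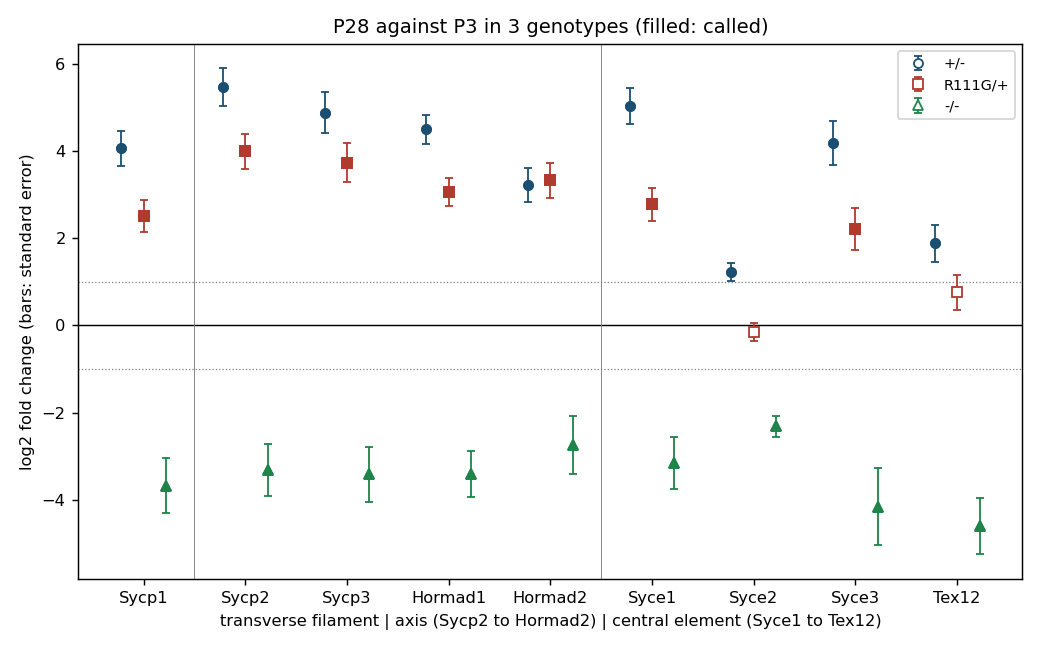
Log2 fold change from P3 to P28 of each gene with its standard error, in +/- (circles), R111G/+ (squares) and -/- gonads (triangles). Filled symbols were called. Changes were from 1.23 to 5.46 in +/- and from -4.61 to -2.32 in -/-, and in R111G/+ gonads Syce2 and Tex12 were not called, but were with scaling by interstitial cell genes.

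The difference between ages in the effect of genotype was tested directly, as a contrast of 2 contrasts. For -/- against +/-, all 9 genes had a more negative effect at P28 than at P3 (23.7% of all genes tested), with log2 differences from -3.54 ± 0.31 for Syce2 to -8.78 ± 0.71 for Sycp2. For R111G/+ against +/-, Sycp1, Hormad1, Syce1, Syce2 and Syce3 had a more negative effect at P28 (9.69% of all genes tested). The log2 difference was -2.25 ± 0.53 for Syce1 (adjusted p = 0.00454, edgeR) and -1.38 ± 0.28 for Syce2 (adjusted p = 0.00174). For Hormad2 it was 0.11 ± 0.53 (adjusted p = 0.986). This count moved with single libraries. It was 8 without P3 +/- replicate 2, 3 without P28 +/- replicate 1, and 2 without any one of P28 +/- replicate 2, P28 R111G/+ replicate 3, P3 +/- replicates 1 and 3, and P3 R111G/+ replicates 1 and 3.

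Genes whose products work with the complex were taken as a list of 17, chosen from knowledge of meiosis. Of the 16 tested in P28 -/- against +/+, 14 were lower (40.5% of all genes tested), and the median log2 fold change was -5.67. The smallest adjusted p were those of Smc1b and Stag3, subunits of meiotic cohesin (-8.43 ± 0.33 and -7.24 ± 0.31), and of 4930432K21Rik, known as Brme1, and Hsf2bp, partners in BRCA2 loading (-4.64 ± 0.23 and -7.88 ± 0.40). Trip13, which removes HORMAD proteins from synapsed axes (-0.83 ± 0.24), and Sun1, a nuclear envelope protein that tethers telomeres (-0.77 ± 0.13), passed the adjusted p but not the fold limit. In R111G/+ against +/- 7 of the 16 were lower (28.1% of all genes tested). The smallest adjusted p were those of 4930432K21Rik (-1.14 ± 0.19), Hspa2 (-1.47 ± 0.28), Smc1b (-1.08 ± 0.21) and Stag3 (-1.12 ± 0.23). Against +/+ testes 9 of the 16 were lower in R111G/+ gonads (34.1% of all genes), and against -/- gonads 13 were higher (27.6%).

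None of the 14 partners tested at P3 was called in any of the 4 comparisons. At P7 Fkbp6, a germ cell cochaperone gene needed for synapsis, was the only one of 12 called, beside 4.56% of all genes tested. It was lower in null cells (log2 fold change -1.60 ± 0.35, adjusted p = 0.0337, edgeR). From P3 to P28, 13 of 16 partners were higher in +/- gonads (36.6% of all genes tested). In R111G/+ gonads 12 were higher (28.1%) and Trip13 lower, and in -/- gonads 9 were lower (12.4%). In -/- gonads the cohesin gene Rec8 was higher at P28 (2.14 ± 0.52, adjusted p = 0.00233), and the remaining 6 partners were not called.

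Over the 10 group means, the genes most like the mean of the 9 members in log2(CPM + 1) were Rnf17 (Pearson r = 0.997), D1Pas1 (0.994), Terb2 (0.992), Tcfl5 (0.991) and Tdrd12 (0.988), out of 16415 genes compared. The group means share their libraries and their contrast of P28 testes with the rest, so r is a description. Among the members, Sycp1 was the closest to the mean of the other 8 (r = 0.993) and Syce2 the farthest (r = 0.867).

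In a list of 4291 Hi-C interactions, which are pairs of genome segments in contact, from P7 Sertoli cells labelled Dmrt1 -/-, 2 of the 9 genes had an anchor within 10 kilobases. Sycp3 had 1 interaction and Hormad2 had 3, against 26.9% of 21897 protein-coding genes with at least 1. With the gene body alone it was 1 of 9, Hormad2, against 19.1%. The list carries no score and its replicates were pooled, so no test was made.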

How the data were processed

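RNA from whole gonads (P28, P3) and isolated Sertoli cells (P7) was sequenced in 30 libraries. The deposited counts are whole numbers of read pairs per gene, which the authors made by trimming with Trim Galore 0.6.0 and cutadapt 1.18, aligning to GRCm38 with STAR 2.7.2a and counting by strand. From these counts, edgeR 4.0.16 (R 4.3.3) quasi-likelihood tests were fitted by age and tissue with filterByExpr and TMM factors, and for age over the 24 gonad libraries. Genes were called at a Benjamini-Hochberg adjusted p under 0.05 and over 2-fold, adjusted over all genes tested. DESeq2 1.42.0, other scalings, no filter, a replicate block and leaving out libraries were alternatives. Exon lengths for levels per kilobase came from GENCODE M21, while the authors counted over another release. Counting intervals cover counting error only. All 9 members are named, with the partners of smallest adjusted p in a comparison. The members and lists were chosen with earlier results of these data known. The fits were tested on simulated data. The authors' deposited list of Hi-C anchor coordinates, a pooled list with no score, was used as positions, and the ChIP-seq files were not used here.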

Additional observations from a re-analysis of the deposited data

Results flagged for a closer look

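The effect of genotype differed between P28 and P3 in 14 cases, each by a test of the difference itself in edgeR over the 24 gonad libraries. For -/- against +/-, the log2 effect at P28 minus that at P3 was -7.73 ± 0.71 (SE) for the filament gene Sycp1. Among axis genes it was -8.78 ± 0.71 for Sycp2, -8.29 ± 0.76 for Sycp3, -7.90 ± 0.60 for Hormad1 and -5.96 ± 0.74 for Hormad2. Among central element genes it was -8.18 ± 0.69 for Syce1, -3.54 ± 0.31 for Syce2, -8.34 ± 0.97 for Syce3 and -6.49 ± 0.77 for Tex12. The value for Syce3 rests on 3 counts in P28 -/- gonads and depends on the prior count of the fit. Adjusted p (edgeR) ran from 1.43e-09 to 9.3e-07 over these 9 genes, beside 23.7% of all genes tested that were called lower.

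For R111G/+ against +/-, the difference was -1.55 ± 0.51 for Sycp1 (adjusted p = 0.032, edgeR), -2.25 ± 0.53 for Syce1 (0.00454), -1.38 ± 0.28 for Syce2 (0.00174), -1.97 ± 0.69 for Syce3 (0.0454) and -1.43 ± 0.45 for Hormad1 (0.0256). Sycp2 (-1.47, adjusted p = 0.0559), Sycp3 (-1.14, 0.187), Tex12 (-1.12, 0.167) and Hormad2 (0.11, 0.986) were not called. In the R111G/+ contrast 9.69% of all genes tested were called lower, and the count of members ranged from 2 to 8 when 1 library was left out. Germ cell genes differed in the same contrasts, with 12 of 12 lower for -/- and 6 of 12 for R111G/+, beside these same shares of all genes. The part of the germ cell genes in these values was not tested.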

How the results depend on the processing

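All 9 genes stayed called in P28 -/- against +/+ and against +/-, in R111G/+ against -/- and in the -/- difference between ages under every alternative run, and none was called at P3 under any. In all, 216 of 235 counts of called members stayed within 1.5 times the reported count, and 2018 of 2091 member values kept their call. Scaling to interstitial cell genes called 9 members in R111G/+ against +/-, 9 against +/+ and 8 in the R111G/+ difference between ages, and it reversed Syce2 in R111G/+ gonads from P3 to P28 (1.49, against -0.16). The same scaling moved the median of all genes in P28 -/- against +/+ from -0.31 to -2.92, with 97.96% of calls lower in place of 60.8%, and in R111G/+ against +/- 99.5% in place of 80.7%. Under it the share of calls over all genes that were lower was 97.7% in place of 66.1% for -/- against +/-, 99.2% in place of 65.3% for R111G/+ against +/+, 5.63% in place of 26.9% for R111G/+ against -/-, and 46.2% in place of 32.1% for R111G/- against -/- at P3. From P3 to P28 it was 1.72% in place of 34.0% in +/-, 26.8% in place of 53.4% in -/- and 3.45% in place of 32.5% in R111G/+, and for the differences between ages 98.01% in place of 56.9% (-/-) and 99.4% in place of 66.3% (R111G/+). With library totals alone it was 64.4% for R111G/+ against +/-, 48.9% against +/+ and 37.9% for the R111G/+ difference. Library totals alone called 2 members in R111G/+ against +/+ and 2 in the R111G/+ difference, and the adjusted p alone called 6 in R111G/+ against +/-. In P7 cells, no filter on low counts and DESeq2 each called 1 member, and leaving out 1 library gave 0 to 1. The R111G/+ difference between ages ranged from 2 to 8 when 1 library was left out and was 2 with only the groups compared. With the replicate block this count was 4, because Syce3 was lost (adjusted p = 0.0606, edgeR), and no other count of members changed under the block. Equal replicate numbers were not taken as pairs, since the correlations of their deviations were -0.51 to 0.48 at P28 and -0.36 to 0.33 at P3. At P7 they were 0.557, 0.241 and -0.045, against -0.463 to 0.170 for unequal numbers, so that replicates 1 and 2 correlated best with their own number and replicate 3 did not. With the gene body alone, 1 member had a Hi-C anchor. The cause of these changes was not tested. Depth limits P28 -/- gonads, where 5 to 98 counts stood behind each gene other than Syce3.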

Other observations

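At P3 the ratio of Syce1 to Sycp3 counts within a library, chosen after its values were seen, was 1.60 to 2.18 in +/- and 1.45 to 3.35 in R111G/+ gonads. It was 0.519 to 1.12 in -/- and 0.806 to 1.25 in R111G/- gonads, so that the groups with a wild-type allele did not overlap those without one. The counts behind these ratios were 166 to 379 for Syce1 and 125 to 230 for Sycp3 over the 3 libraries of a group. They were smaller in single libraries, where Sycp3 was as low as 2.06 CPM in +/- and 1.81 CPM in R111G/+. The counting error of the ratios was not assessed, and ratios of other pairs of members were not examined.

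As a percent of the P28 +/+ mean, the 9 genes in P28 R111G/+ gonads ran from 22.1% for Syce1, 28.1% for Syce3, 37.3% for Syce2 and 41.2% for Sycp2, through 55.9% for Sycp1 and 58.4% for Hormad1, to 72.02% for Hormad2, 77.4% for Tex12 and 77.6% for Sycp3. The germ cell list stood at 47.4% and the spermatid list at 4.17%, by the medians.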
